A study of Mus musculus with 10 samples.

Results

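The cytosolic ribosomal protein genes encode the proteins of the small and large subunits of the ribosome that translates nuclear-encoded mRNAs. They were taken from the raw counts by name: every gene named Rps or Rpl with a number, together with Rplp0, Rplp1, Rplp2 and Rpsa. The ubiquitin fusion gene Rps27a, the Rps6k kinases, the mitochondrial ribosomal protein genes and genes named as pseudogenes were left out. Of the 25078 genes listed, 85 met this rule, 32 of the small and 53 of the large subunit. At least 1 count in any library was present for 83 of them. The libraries came from LSK cells, the bone marrow fraction without lineage markers but with Sca-1 and c-Kit, which holds hematopoietic stem and early progenitor cells. The comparison was between 5 CM mice (Cbfb56M/+/Mx1-Cre) and 5 CM/miR-126Δ/Δ mice (Cbfb56M/+/miR-126flox/flox/Mx1-Cre). CM mice express the Cbfb-MYH11 fusion of inv(16) leukemia, and in CM/miR-126Δ/Δ mice miR-126 was deleted as well, so the comparison asked which genes depend on miR-126 in cells with the fusion. Both groups carried Mx1-Cre, whose promoter responds to interferon, and both had received poly(I:C). Fusion and deletion were therefore not restricted to stem cells. The cells were collected 6 weeks after induction, before leukemia. The mice were on the C57BL/6 background, 6 to 8 weeks old when poly(I:C) was given and of both sexes, and each library was made from 1 mouse. No mouse without the fusion was compared, so the values describe pre-leukemic cells.

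The ribosome is built from ribosomal RNA and a set of proteins that it holds in nearly equal numbers, apart from the acidic proteins of the stalk on the large subunit. The genes lie scattered over the chromosomes, here on 19 of them, with 14 on chromosome 7 and 4 on chromosome X. Their mRNAs share a tract of pyrimidines that starts with a C at the very first base, the 5′ terminal oligopyrimidine or TOP motif. Through it the kinase mTOR and the RNA-binding protein LARP1 adjust their translation together. Stem cells of the bone marrow are known for a low rate of protein synthesis. Mutations in several members cause Diamond-Blackfan anaemia, a failure of red cell production. The mRNAs have also been copied into the genome many times as processed pseudogenes.

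The TOP motif was sought in the sequence at the annotated starts, and most windows of members did not show it there. RefSeq windows on GRCm38.p6 matched 65 of the 85 members, with 77 windows because some have several starts. A C at the start followed by at least 4 further pyrimidines was present in 14 of these windows (18.2%), against 2.51% of the 32851 windows of all genes. A run of at least 8 pyrimidines that starts with C, on the strand of the gene and beginning within 10 bases of the start, was present in 25 windows (32.5%), against 8.11% of all windows. This second pattern overlaps the first. Annotated starts can lie some bases away from the base where transcription begins. The 30-base windows printed here are of members picked as examples. Among them 7 members have the tract at the start and Rpl18 has it just after the start. Rpl4 and Rps13 have no tract of 5 bases at the annotated start. Each window runs from 10 bases before the start, so that base 11 is the annotated first base of the mRNA. Capitals mark the longest run of pyrimidines that begins with C within 10 bases of the start, where it has at least 5 bases.
Rps6 (chr4:86857348-86857377, minus strand): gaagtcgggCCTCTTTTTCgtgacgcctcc
Rps27 (chr3:90213629-90213658, minus strand): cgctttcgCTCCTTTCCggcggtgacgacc
Rpl28 (chr7:4792955-4792984, plus strand): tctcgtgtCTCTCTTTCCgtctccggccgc
Rpl35 (chr2:39005112-39005141, minus strand): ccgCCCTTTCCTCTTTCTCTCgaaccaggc
Rps15a (chr7:118116128-118116157, minus strand): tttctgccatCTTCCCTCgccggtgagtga
Rpl38 (chr11:114668570-114668599, plus strand): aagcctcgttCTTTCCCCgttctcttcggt
Rps10 (chr17:27635225-27635254, minus strand): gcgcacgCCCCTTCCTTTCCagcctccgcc
Rpl18 (chr7:45718061-45718090, plus strand): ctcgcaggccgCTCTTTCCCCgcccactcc
Rpl4 (chr9:64173377-64173406, plus strand): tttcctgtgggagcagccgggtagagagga
Rps13 (chr7:116334171-116334200, minus strand): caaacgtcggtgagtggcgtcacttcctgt

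Copies elsewhere in the genome were counted because a read of 51 bases that occurs at several loci cannot be placed. For 83 members the windows of 51 bases that start at each base of the mRNA (GENCODE M1 on mm9, 1 transcript per member) were compared with the genome. The share of windows that also occur without a mismatch at another locus ran from 0%, as in Rpl3l and Rpl39l, to 99.7% in Rps27. The windows at the middle of the coding sequence of 5 members, 2 with few and 3 with many copies, illustrate this. The windows of Rpl8 and Rpl4 occurred at 0 other loci. The window of Rps13 occurred without a mismatch at 5 other loci, that of Rps27 at 2 and that of Rpl10 at 6. With up to 2 mismatches the numbers were 0 and 1 for Rpl8 and Rpl4 and 7, 10 and 8 for the others.
Rpl8, bases 411 to 461 of the mRNA: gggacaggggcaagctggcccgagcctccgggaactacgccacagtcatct
Rpl4, bases 649 to 699 of the mRNA: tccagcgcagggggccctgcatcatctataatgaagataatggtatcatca
Rps13, bases 286 to 336 of the mRNA: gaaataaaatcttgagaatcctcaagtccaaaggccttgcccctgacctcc
Rps27, bases 139 to 189 of the mRNA: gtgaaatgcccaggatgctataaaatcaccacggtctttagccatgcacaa
Rpl10, bases 384 to 434 of the mRNA: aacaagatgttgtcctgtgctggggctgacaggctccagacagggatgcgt

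Although the ribosome holds the proteins in nearly equal numbers, the counts of the genes differed widely. Levels are given as the mean over the 10 mice of RPKM, the counts per kilobase of exon relative to the TMM-scaled library size. Among the 79 members with at least 10 counts in every library the lowest was Rpl36a with 2.14 RPKM. Among the highest were Rpl8 with 1027 RPKM, Rpl4 with 988 RPKM and Rps9 with 722 RPKM. The next lowest were Rpl23a with 2.43, Rps29 with 3.13 and Rpl32l with 3.74 RPKM. Of the 85 members 14 reached a mean of 400 RPKM, 35 were under 20 RPKM and 79 were at or above 1 RPKM. The median was 34.1 RPKM over the family, 42.96 for the small and 27.5 for the large subunit. The 10 most counted members held 58.0% of all counts on the family. The order of the members was nearly the same in every mouse. The lowest Spearman correlation between the RPKM values of any pair of mice was 0.975 over the 79 members.

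Levels were lower in members with many copies. Of the 13 members with up to 25% of windows copied exactly elsewhere 5 reached 400 RPKM, of the 22 with 25% to 50% 7 did, and of the 18 with 50% to 75% 2 did. None of the 17 members with 75% to 90% or of the 13 above 90% did, and the highest of these was Rps4x with 241 RPKM. The median of these groups, in order of rising copy share, was 87.8, 43.8, 38.5, 16.6 and 11.3 RPKM. Over the 77 members with a reference mRNA and at least 10 counts in every library the Spearman correlation between copy share and RPKM was -0.46, a description across genes that share libraries and annotation. Copy share did not order every member. Rpl30, a protein of the large subunit, had 62.5% of windows copied and 0.830 RPKM, while Rplp1 had 61.8% and 722 RPKM. Rpl3 had 91.1% and 77.2 RPKM. How the counting treated reads with several alignments is not given in the sources used here, and its part in these levels was not tested. The deposited exon length joins all exons of a gene, which lowers the RPKM of genes with long alternative exons such as Rps15a, listed with 5134 bases.

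**Figure D1:**
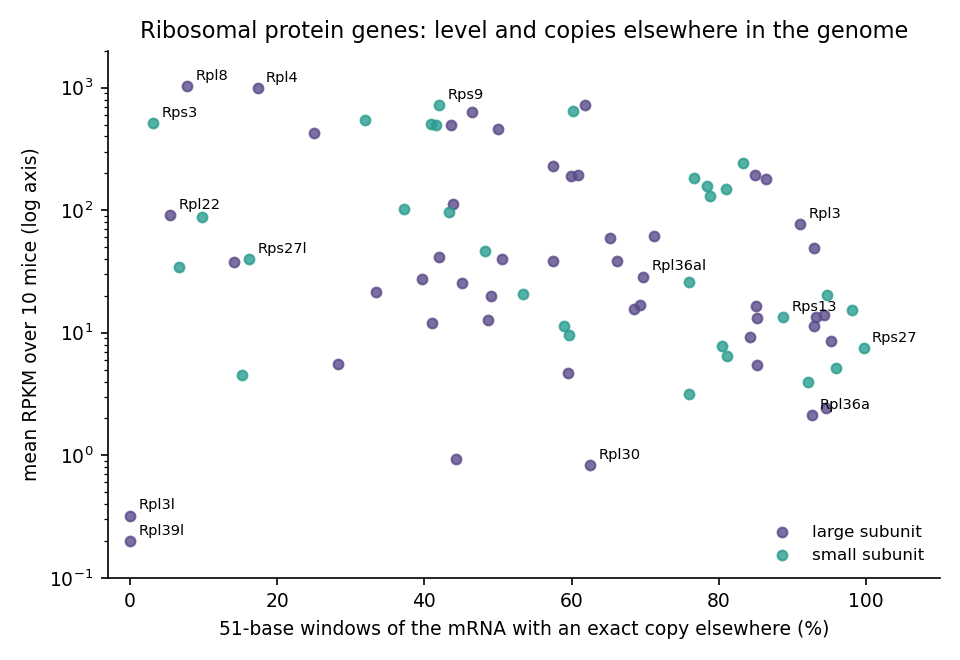
Mean RPKM over 10 mice (log axis) of ribosomal protein genes with a count and a reference mRNA, against the share of its 51-base mRNA windows with an exact copy elsewhere in the genome (%); each point is 1 gene, coloured by subunit. All genes plotted at or above 400 RPKM lie at or below 75%, and Rps27, with 99.7%, lies at 7.52 RPKM.

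The paralogs, which encode a second form of a ribosomal protein, did not always lie below their parent genes. Rps27l had a level of 39.8 RPKM against 7.52 RPKM for Rps27, with exact copies for 16.2% of the windows of Rps27l and 99.7% of those of Rps27. Rpl36al had 28.7 RPKM against 2.14 RPKM for Rpl36a, with copies for 69.8% and 92.6% of the windows. In both pairs the paralog lay above the parent gene in RPKM in all 10 mice. In 3 other pairs the parent gene was higher. Rpl22 had 91.0 RPKM against 59.2 for Rpl22l1, Rpl7 had 195 against 37.8 for Rpl7l1, and Rps4x had 241 against 4.53 for Rps4l. Rpl3l, the form of Rpl3 known from muscle, had 5 to 23 counts per library. Rpl39l, the form of Rpl39 known from testis, had 0 to 19. Their parents Rpl3, Rpl10 and Rpl39 had 77.2, 13.9 and 493 RPKM. A paralog and its parent share sequence, so the counting could split reads between them.

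Some members could not be measured at this depth. Rpl26 and Rpl10l had 0 counts in all 10 libraries, which allows up to 0.0904 to 0.127 CPM per library (3 counts, counting error only). Rpl26 is a core protein of the large subunit. With up to 2 mismatches 100% of its windows occurred elsewhere in the genome, so its 0 counts cannot be read as absence of the mRNA. Rpl10l, an intronless relative of Rpl10 known from testis, had exact copies of 25.8% of its windows elsewhere. With up to 2 mismatches the share for Rpl10l was 84.45%. Under 10 counts in some library were also found for Rpl3l and Rpl39l, for Rpl30 with 6 to 20 counts and for Rpl34 with 8 to 30 counts. Of the members 35 had at least 1000 counts in every library.

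The summed level of the family was lower on average in CM/miR-126Δ/Δ mice, with overlap between the genotypes. The 85 members summed to 11800, 12070, 10990, 12840 and 11350 CPM in CM mice 1 to 5 (counts per TMM-scaled library size). They summed to 10480, 10230, 11640, 11930 and 10300 CPM in CM/miR-126Δ/Δ mice 1 to 5. CM/miR-126Δ/Δ mice 1, 2 and 5 lay below every CM mouse, and CM/miR-126Δ/Δ mice 3 and 4 lay within the range of the CM mice. The means were 11810 ± 709 and 10920 ± 805 CPM (SD, n = 5 each). The mouse with the deletion was lower in 4 of the 5 same-numbered pairs, pair 3 being the exception. The small subunit genes summed to 5351 ± 394 CPM without and 4944 ± 444 CPM with the deletion (SD, n = 5 each). The large subunit genes summed to 6459 ± 328 CPM without and 5972 ± 379 CPM with it (SD, n = 5 each). Both subunits thus stood at 92.4% to 92.5% of the CM mean. Of all counts on genes the family took 1.01% to 1.31%. No test was run on sums, because the members were chosen with results of these data known.

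**Figure D2:**
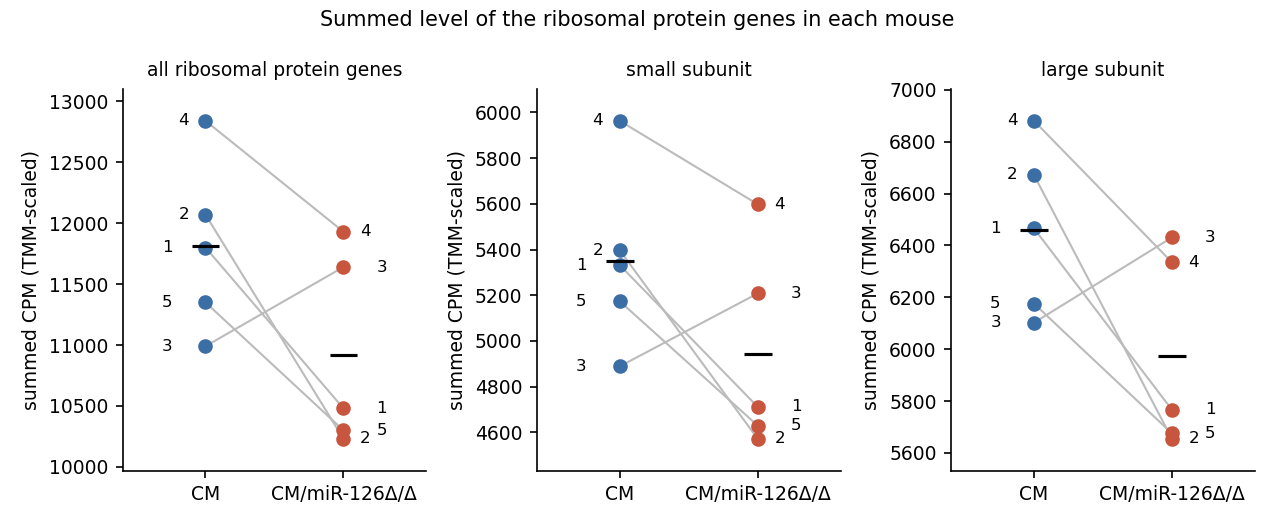
Summed TMM-scaled CPM (axes do not start at 0) of all 85 ribosomal protein genes, of the 32 small subunit genes and of the 53 large subunit genes in each mouse; numbers are the mouse numbers, grey lines join same-numbered mice, and short bars are genotype means. The sum of the family is lower in the CM/miR-126Δ/Δ mouse of 4 of 5 pairs, and the ranges of the genotypes overlap.

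Gene by gene, 0 of the 83 members fitted differed between the genotypes at an adjusted p under 0.05 (edgeR quasi-likelihood test, Benjamini-Hochberg over all 18747 genes fitted, of which 0.0107% passed). The smallest adjusted p was 0.525. None met the study's cutoffs of p at or below 0.01, 1.5-fold change and 1 RPKM, which 0.288% of all genes met. At an unadjusted p of 0.05 or below 14 members were lower in CM/miR-126Δ/Δ mice and 0 were higher. These are 16.9% of the members, against 3.32% of all genes fitted for lower and 3.29% for higher. Where the background was limited to genes that reached 1 RPKM in either genotype, it was 4.46% for lower. DESeq2 gave 15 lower, 0 higher and 0 at an adjusted p under 0.05, with 2.81% of all genes lower. Stricter filters before the edgeR fit gave fewer. With filterByExpr 6 of 82 members were lower (background 2.88%). With only genes that reached 1 RPKM in either genotype 6 of 79 were lower (background 2.91%). In the main fit, estimates of the log2 fold change were below 0 in 73 of 83 members, with a median of -0.12 and quartiles of -0.16 and -0.060. Over all genes fitted 52.6% of estimates were below 0 and the median was -0.010. Over genes that reached 1 RPKM in either genotype 57.5% were below 0, with a median of -0.019. The median standard error of a member was 0.098 on the log2 scale, close to the size of the family's median estimate.

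The number lower also changed when single mice were left out and when the trend with exon length was removed, and the cause of these changes was not tested. Without CM mouse 4 it was 2 of 83 (background 2.07%). Without CM mouse 1, 2 or 5 it was 5, 4 or 7 (background 2.35%, 2.87% and 2.69%), and without CM/miR-126Δ/Δ mouse 1, 2 or 5 it was 4, 5 or 3 (background 2.37%, 1.92% and 2.37%). Without CM mouse 3 it was 15 (background 3.28%), and without CM/miR-126Δ/Δ mouse 3 or 4 it was 13 or 18 (background 3.37% and 4.29%). When the trend of the counts with exon length was removed from each library, 2 members were lower (background 2.47%) and the median estimate was -0.048. With the replicate number as a block 21 members were lower and 0 higher, where 4.62% of all genes were lower. None passed the adjustment under the block, and the smallest adjusted p was 0.179. All 14 members lower without the block were among these 21, and the other 7 were Rpl22l1, Rpl23, Rpl32, Rplp2, Rps18, Rps26 and Rps4l. In a mixed population such as LSK cells, fewer cells with much of an mRNA and less of it per cell cannot be told apart.

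**Figure D3:**
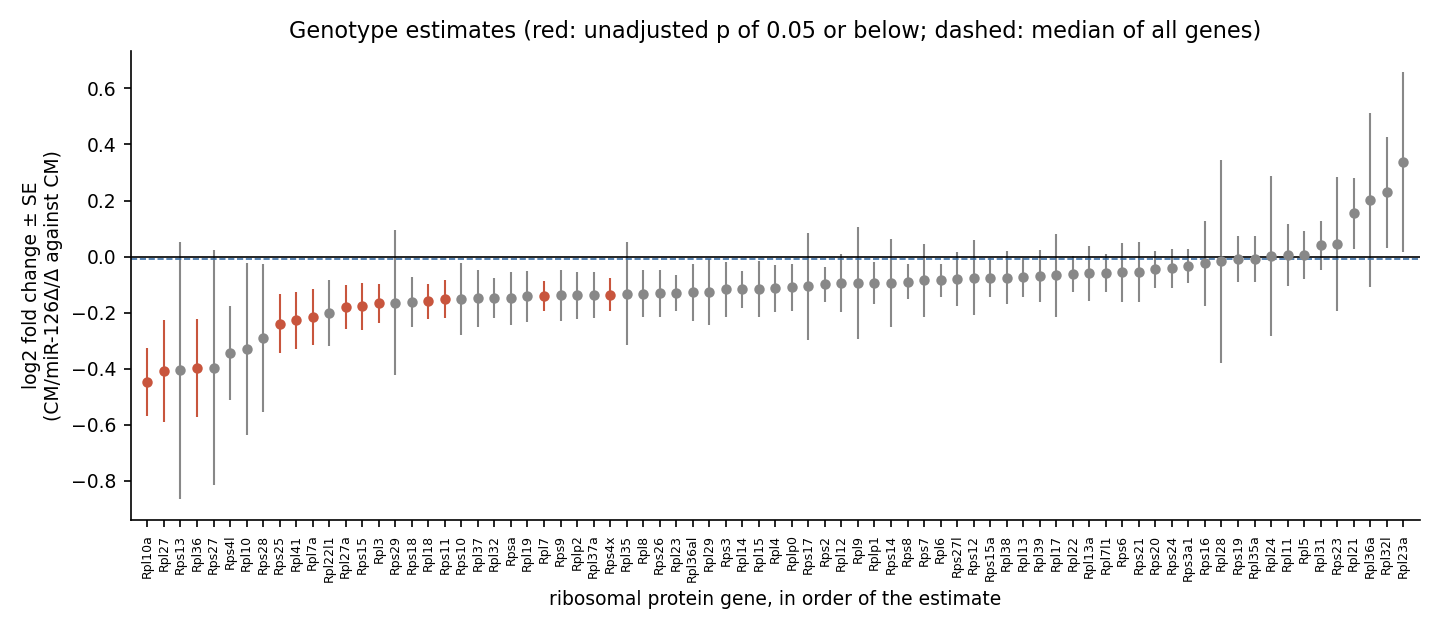
Log2 fold change (CM/miR-126Δ/Δ against CM, ± SE from edgeR) of 77 of the 79 ribosomal protein genes with at least 10 counts in every library (the other 2 are not shown), in order of the estimate; red marks an unadjusted p of 0.05 or below, and the dashed line is the median of all genes fitted (-0.010). Of these estimates 68 lie below 0, and no member passes the adjustment over all genes.

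Among the large subunit proteins, Rpl10a (chr17:28328471-28331033, mm10), a protein of the mobile stalk beside the site where tRNAs leave, had the lowest estimate of the members with at least 10 counts in every library. Rpl10a counted 19.5, 20.8, 18.7, 19.7 and 16.4 CPM in CM mice 1 to 5 and 15.6, 12.2, 10.8, 16.9 and 14.2 CPM in CM/miR-126Δ/Δ mice 1 to 5. CM/miR-126Δ/Δ mouse 4 lay above CM mouse 5, and all other CM/miR-126Δ/Δ mice lay below every CM mouse. Its log2 fold change was -0.45 ± 0.12 (SE) (adjusted p = 0.525, edgeR; exact permutation p = 0.0159). Adjusted over all genes, its permutation p was 0.785. The unadjusted p of Rpl10a stayed at or below 0.05 in all 22 alternative settings fixed with the design, DESeq2 among them. The log2 fold changes of Rpl10a were -0.51 to -0.37 in them.

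Other large subunit members with small p were Rpl7, Rpl18 and Rpl3, the last a protein close to the peptidyl transferase centre. Rpl7 counted 199.7, 195, 184, 195 and 179 CPM in CM mice 1 to 5 and 171, 169.8, 185, 173 and 166 CPM in CM/miR-126Δ/Δ mice 1 to 5. Rpl18 counted 134, 149, 129, 149 and 134 CPM in CM mice 1 to 5 and 117, 117, 137, 126 and 126 CPM in CM/miR-126Δ/Δ mice 1 to 5. Rpl3 counted 115, 123, 95.5, 113 and 108 CPM in CM mice 1 to 5 and 101, 92.7, 106, 103 and 92.5 CPM in CM/miR-126Δ/Δ mice 1 to 5. In each of these genes the CM/miR-126Δ/Δ mice lay lower on average and their range overlapped that of the CM mice. The log2 fold changes were -0.14 ± 0.054 (SE) for Rpl7 (adjusted p = 0.746, edgeR; exact permutation p = 0.0238), -0.16 ± 0.063 (SE) for Rpl18 (adjusted p = 0.746, edgeR; exact permutation p = 0.0318) and -0.17 ± 0.069 (SE) for Rpl3 (adjusted p = 0.746, edgeR; exact permutation p = 0.0635). When 1 mouse at a time was left out, the edgeR p stayed at or below 0.05 in 6, 6 and 3 of 10 fits for Rpl7, Rpl18 and Rpl3. It was largest without CM mouse 1 for Rpl7, without CM mouse 4 for Rpl18 and without CM mouse 2 for Rpl3, with log2 fold changes of -0.11, -0.12 and -0.13. With the length trend removed none of the 3 reached that p, and the log2 fold changes were -0.065, -0.078 and -0.10.

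The genotypes did not overlap in 2 members, Rps25 and Rpl19, both lower in CM/miR-126Δ/Δ mice, while 0.528% of all genes fitted were lower without overlap. Rps25 (chr9:44407714-44410406), a small subunit protein known for its part in translation from internal entry sites, counted 7.87, 9.48, 8.80, 8.37 and 7.43 CPM in CM mice 1 to 5 and 6.93, 7.15, 7.40, 6.89 and 7.16 CPM in CM/miR-126Δ/Δ mice 1 to 5. The highest CM/miR-126Δ/Δ mouse lay at 7.40 CPM and the lowest CM mouse at 7.43 CPM, so the groups were adjacent. Rpl19 (chr11:98026710-98030493), a large subunit protein with a long helix that reaches the small subunit, counted 9.45, 9.62, 9.70, 9.95 and 9.18 CPM in CM mice 1 to 5 and 8.27, 8.72, 9.14, 9.03 and 8.23 CPM in CM/miR-126Δ/Δ mice 1 to 5, and the groups were again adjacent. The log2 fold changes were -0.24 ± 0.10 (SE) for Rps25 (adjusted p = 0.748, edgeR) and -0.14 ± 0.091 (SE) for Rpl19 (adjusted p = 0.765, edgeR). For both the exact permutation p was 0.00794, the smallest that splits of 10 mice into 5 and 5 allow, with an adjusted p of 0.722 over all genes. The number of members without overlap was 6 without CM mouse 3, 9 without CM/miR-126Δ/Δ mouse 3 and 7 without CM/miR-126Δ/Δ mouse 4. In either direction, 2.58%, 2.32% and 3.37% of all genes had no overlap in these comparisons of 4 with 5 mice, against 1.10% with all mice. With the length trend removed Rps25 did not reach an unadjusted p of 0.05, with a log2 fold change of -0.16. The edgeR p of Rps25 stayed at or below 0.05 in 3 of 10 fits that left out 1 mouse, and that of Rpl19 in none. Rps25 overlaps Ccdc84 on the opposite strand, and whether counting used the strand is not given in the sources used here.

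**Figure D4:**
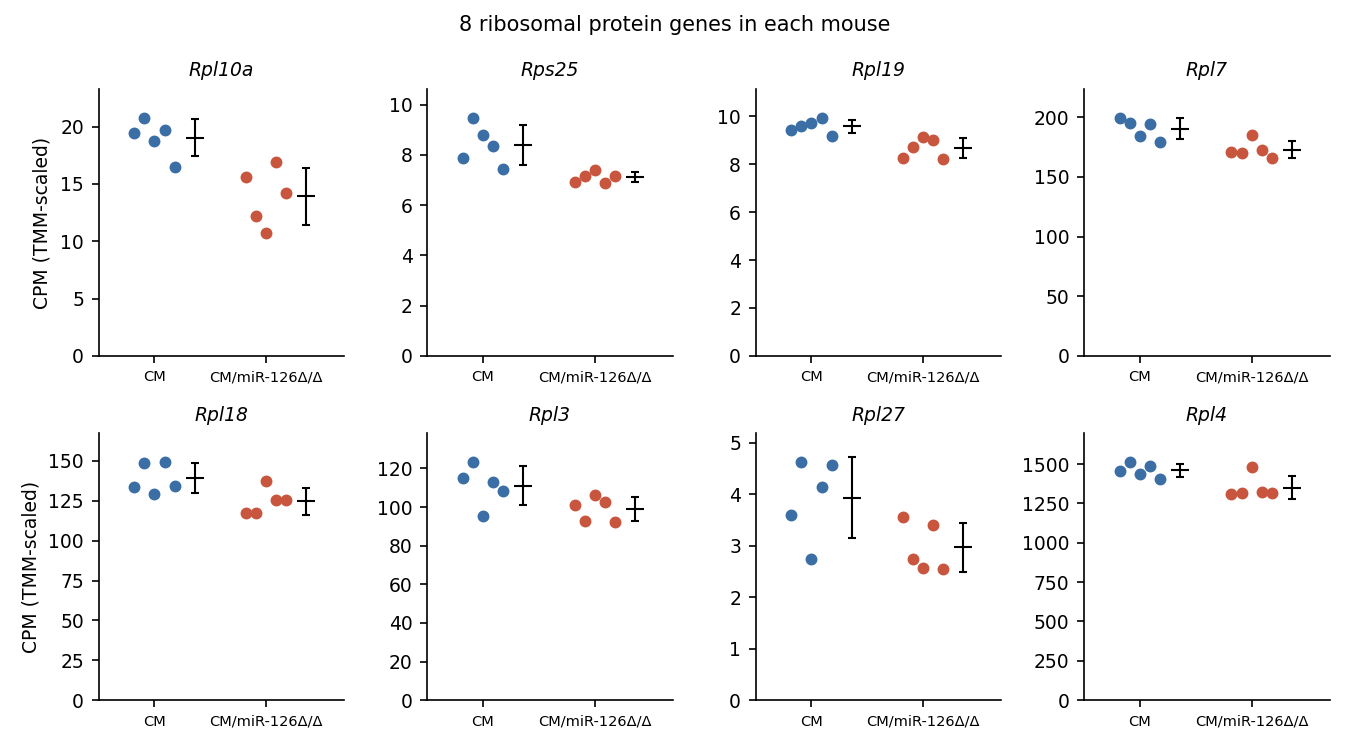
TMM-scaled CPM of 8 ribosomal protein genes in each mouse (points; blue, CM; red, CM/miR-126Δ/Δ), with mean ± SD (black, n = 5 each) beside the points. Rps25 and Rpl19 show no overlap between the genotypes, and in the others the ranges overlap.

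Of the small subunit proteins 4 of 32 were lower at an unadjusted p of 0.05 or below and 0 higher, with estimates below 0 in 31 and a median of -0.11. Of the large subunit proteins 10 of 51 were lower and 0 higher, with estimates below 0 in 42 and a median of -0.12. Of all genes fitted 3.32% were lower at that p and 52.6% had estimates below 0. Among the 35 members with at least 1000 counts in every library all 35 estimates were below 0 and 8 reached that p, with a median of -0.12. Of the 322 genes outside the family at or above 100 RPKM 78.3% had estimates below 0, with a median of -0.068, and 5.59% were lower at that p. Rpl8, Rpl4 and Rps9, among the members with the highest RPKM, did not reach it. Their estimates were -0.13 ± 0.084 (SE) for Rpl8, -0.11 ± 0.084 (SE) for Rpl4 and -0.14 ± 0.089 (SE) for Rps9. Rpl4, the member with most counts (31961 to 48200 per library), counted 1459, 1514, 1434, 1486 and 1404 CPM in CM mice 1 to 5 and 1311, 1319, 1483, 1322 and 1316 CPM in CM/miR-126Δ/Δ mice 1 to 5. CM/miR-126Δ/Δ mouse 3 lay within the range of the CM mice, and the other CM/miR-126Δ/Δ mice lay below every CM mouse. Rps4x, the X-linked form of a small subunit protein, reached an unadjusted p of 0.05 or below at -0.14 ± 0.060 (SE) (adjusted p = 0.748, edgeR; exact permutation p = 0.0238), and did so in 2 of 10 fits that left out 1 mouse. Rps4x did not reach it with the length trend removed, at -0.060.

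No member was higher in CM/miR-126Δ/Δ mice at an unadjusted p of 0.05 or below. Of the 10 members with an estimate above 0, Rpl21 had the smallest p, with 0.15 ± 0.13 (SE) (adjusted p = 0.765, edgeR; exact permutation p = 0.206). It was followed by Rpl32l with 0.23 ± 0.20 (SE), Rpl23a with 0.34 ± 0.32 (SE), Rpl3l with 0.37 ± 0.40 (SE), Rpl36a with 0.20 ± 0.31 (SE) and Rpl31 with 0.040 ± 0.087 (SE). Rpl23a counted 0.999, 1.39, 1.31, 1.31 and 0.991 CPM in CM mice 1 to 5 and 0.705, 1.25, 2.44, 0.990 and 2.22 CPM in CM/miR-126Δ/Δ mice 1 to 5. Only CM/miR-126Δ/Δ mice 3 and 5 stood above the CM range. Rpl32l lies within the span of Map7 on the same strand and was counted at 48 to 70 reads per library, so its reads cannot be told from those of Map7 here.

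The 3 proteins of the stalk, which recruits the elongation factors, had estimates below 0 that did not pass the test. They were -0.11 ± 0.084 (SE) for Rplp0, -0.093 ± 0.075 (SE) for Rplp1 and -0.14 ± 0.084 (SE) for Rplp2 (edgeR). Rplp0, often used as a reference gene, had means of 644 ± 52.1 CPM without and 596 ± 49.4 CPM with the deletion (SD, n = 5 each). Rpl5 and Rpl11 bind the 5S ribosomal RNA and, when free, the p53 inhibitor MDM2. Rpl5 counted 26.3, 30.1, 23.8, 24.4 and 22.7 CPM in CM mice 1 to 5 and 24.9, 25.4, 25.1, 27.4 and 25.1 CPM in CM/miR-126Δ/Δ mice 1 to 5. Rpl11 counted 17.8, 20.9, 22.8, 22.2 and 18.6 CPM in CM mice 1 to 5 and 17.4, 18.6, 25.2, 21.0 and 20.4 CPM in CM/miR-126Δ/Δ mice 1 to 5. The groups overlapped in both genes. The estimates were 0.0059 ± 0.085 (SE) for Rpl5 and 0.0049 ± 0.11 (SE) for Rpl11, and these errors leave room for a difference of the size of the family's median.

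Of 19 genes mutated in Diamond-Blackfan anaemia 18 were fitted. At an unadjusted p of 0.05 or below 2 of them were lower, Rpl18 and Rpl27, and 0 were higher, with estimates below 0 in 15 and a median of -0.11. Over all genes fitted 3.32% were lower at that p and 52.6% had estimates below 0. Rpl27, a large subunit protein, counted 3.60, 4.63, 2.74, 4.13 and 4.56 CPM in CM mice 1 to 5 and 3.56, 2.75, 2.57, 3.40 and 2.55 CPM in CM/miR-126Δ/Δ mice 1 to 5. CM/miR-126Δ/Δ mice 3 and 5 lay below every CM mouse, mouse 2 lay just above the lowest CM mouse, and mice 1 and 4 lay within the CM range. Its log2 fold change was -0.41 ± 0.18 (SE) (adjusted p = 0.748, edgeR; exact permutation p = 0.0476). Rps19, the member most often mutated in that disease, counted 48.1, 45.0, 38.3, 51.5 and 44.4 CPM in CM mice 1 to 5 and 42.4, 42.0, 47.0, 50.6 and 44.1 CPM in CM/miR-126Δ/Δ mice 1 to 5. The groups overlapped throughout, with an estimate of -0.0080 ± 0.081 (SE) (adjusted p = 0.982, edgeR; exact permutation p = 0.913).

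The 7 paralogs fitted had estimates below 0 in 6 cases and none reached an unadjusted p of 0.05, with a median of -0.13. The lowest p belonged to Rps4l (-0.34 ± 0.17 (SE), adjusted p = 0.764, edgeR; exact permutation p = 0.0873) and Rpl39l (-1.71 ± 0.84 (SE), adjusted p = 0.764, edgeR; exact permutation p = 0.175). Rpl39l was counted at 19, 2, 3, 11 and 3 reads in CM mice 1 to 5 and at 0, 1, 6, 2 and 0 reads in CM/miR-126Δ/Δ mice 1 to 5. Its estimate thus rests on few reads, and was -2.90 without CM/miR-126Δ/Δ mouse 3 and -1.11 without CM mouse 1. Rpl22l1, which can replace Rpl22 in the ribosome, counted 32.9, 40.7, 32.0, 37.3 and 33.2 CPM in CM mice 1 to 5 and 31.1, 30.7, 26.2, 39.8 and 25.3 CPM in CM/miR-126Δ/Δ mice 1 to 5. Its estimate was -0.20 ± 0.12 (SE) (adjusted p = 0.765, edgeR; exact permutation p = 0.167). With the replicate block it reached an unadjusted p of 0.05 or below, as Rps4l did, with an adjusted p of 0.457 for Rpl22l1 and 0.530 for Rps4l (edgeR). Rpl22 itself had an estimate of -0.061 ± 0.064 (SE). Rpl7l1 stood at -0.059 ± 0.069 (SE), Rpl36al at -0.13 ± 0.10 (SE) and Rps27l at -0.080 ± 0.096 (SE).

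Other mRNAs with a TOP motif stood on the same side. All 18 of them, among them those of the elongation factor genes Eef1a1 and Eef2, of Npm1 and of Rack1, had estimates below 0, with a median of -0.094. At an unadjusted p of 0.05 or below 1 was lower and 0 were higher. Of all genes fitted 52.6% had estimates below 0 and 3.32% were lower at that p. Of 18 genes that regulate TOP mRNAs or ribosomal protein transcription, such as Larp1, Mtor, Rps6kb1 and Myc, 9 had estimates below 0, and the median was -0.0041. In this list Mlst8, a subunit of the mTOR complexes, was lower at an unadjusted p of 0.05 or below, with -0.15 ± 0.066 (SE, adjusted p = 0.748, edgeR). Larp1b was higher at that p, with 0.22 ± 0.10 (SE, adjusted p = 0.754, edgeR). Larp1 and Myc did not pass, with -0.0085 ± 0.10 and -0.17 ± 0.12 (SE).

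Estimates below 0 were also common in genes outside the family that share its abundance or its function. Short genes had shares near those of all genes at or above 1 RPKM. Of the 322 other genes at or above 100 RPKM 78.3% had estimates below 0, with a median of -0.068, and 5.59% were lower at an unadjusted p of 0.05 or below. Of the 1153 other genes at or above 1 RPKM with an exon length up to 1000 bases 59.2% had estimates below 0, with a median of -0.048, and 3.73% were lower at that p. Over all genes at or above 1 RPKM these figures were 57.5%, -0.019 and 4.46%. Of the 78 mitochondrial ribosomal protein genes, whose products form the separate ribosome of mitochondria, 67 had estimates below 0, with a median of -0.064. At that p 6 of these were lower (7.69%) and 0 higher. The same figures for the cytosolic family were 88.0%, -0.12 and 16.9%. The lists were set side by side without a test between them. RNA concentration, given in the labels, was 20.6 to 40.9 ng/µl in CM and 16.1 to 29.5 ng/µl in CM/miR-126Δ/Δ samples. Total counts were 23649233 to 33202086 and 24141663 to 26615091. The part of both in the estimates was not tested.

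Within genotypes, most members varied little and a few varied widely and together. The median within-genotype SD of log2 CPM (pseudocount of 0.1 CPM) was 0.10 in the 28 members with a mean of at least 100 CPM and 0.20 in the 51 with less. It was at least 0.5, a limit chosen after the values were seen, in 6 members. These were Rps13 (1.04), Rps27 (0.91), Rpl28 (0.77), Rpl10 (0.62), Rpl24 (0.54) and Rpl23a (0.52). Rps13, which binds at the platform of the small subunit, counted 8.33, 14.3, 2.25, 8.40 and 11.3 CPM in CM mice 1 to 5 and 7.97, 9.45, 2.52, 11.4 and 2.35 CPM in CM/miR-126Δ/Δ mice 1 to 5. Rps27 counted 4.42, 7.37, 1.43, 5.24 and 6.11 CPM in CM mice 1 to 5 and 5.01, 4.60, 1.48, 5.98 and 1.61 CPM in CM/miR-126Δ/Δ mice 1 to 5. Rpl28 counted 3.94, 7.53, 1.39, 4.57 and 5.55 CPM in CM mice 1 to 5 and 5.49, 4.97, 2.22, 6.85 and 3.21 CPM in CM/miR-126Δ/Δ mice 1 to 5. In all 3 genes CM mouse 3 and CM/miR-126Δ/Δ mice 3 and 5 were the lowest. For Rps13 they lay at 2.25 to 2.53 CPM, against 7.97 to 14.3 CPM in the other 7 mice, and for Rps27 at 1.43 to 1.61 against 4.42 to 7.37 CPM. The same mice were the lowest for Rpl10 (5.31 to 6.71 against 8.72 to 20.0 CPM) and for Rpl24 (2.06 to 2.39 against 3.21 to 5.58 CPM). In all they were the lowest 3 in 10 of 79 members. Of these 10, 5 are the variable members from which the 3 mice were picked, and the share over all genes was not computed. Mean CPM of the other 7 mice was 4.29-fold that of these 3 for Rps13, 3.67-fold for Rps27, 2.44-fold for Rpl28, 2.21-fold for Rpl10 and 1.95-fold for Rpl24. The mouse pattern of Rpl23a was different, as given above.

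The same 3 mice did not stand apart in the family as a whole, with sums of 10990, 11640 and 10300 CPM in CM mouse 3 and CM/miR-126Δ/Δ mice 3 and 5, against 10230 to 12840 CPM in the others. Immediate early genes, which respond within minutes to signals or handling, were low in them. Egr1 counted 574, 1413, 43.7, 549.6 and 984 CPM in CM mice 1 to 5 and 549, 406, 14.3, 928 and 23.1 CPM in CM/miR-126Δ/Δ mice 1 to 5. Fos counted 725, 1220, 224, 616 and 649 CPM in CM mice and 369, 406, 17.1, 464 and 19.4 CPM in CM/miR-126Δ/Δ mice, in the same order. Both genes were lowest in CM mouse 3 and CM/miR-126Δ/Δ mice 3 and 5. The 9 markers of granulocytes and monocytes, 8 of them above 1 CPM, summed to 2891, 2078, 3923, 3136 and 2636 CPM in CM mice 1 to 5. They summed to 1723, 2729, 4645, 2528 and 3183 CPM in CM/miR-126Δ/Δ mice 1 to 5 and were highest in the same 3 mice. Most of this sum was Mpo, whose mean was 2160 CPM without the deletion and 2184 CPM with it. The 5 megakaryocyte markers, 4 of them above 1 CPM, summed to 108 to 140 CPM in these mice and to 172 to 210 CPM in the others. Nearly all of this sum was Itga2b, whose mean was 172.6 CPM without the deletion and 144.2 CPM with it. No other megakaryocyte marker had a genotype mean above 5.12 CPM, so the sum describes Itga2b rather than the list. The part of these immediate early genes and markers in the spread of Rps13 and the other members was not tested.

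The shares of windows with exact copies were 88.7% for Rps13, 99.7% for Rps27, 84.2% for Rpl28, 94.3% for Rpl10 and 85.2% for Rpl24. The spread of the 13 members with shares over 90% ran from an SD of 0.057 in Rpl19 to 0.91 in Rps27, with a median of 0.29. The Spearman correlation was 0.40 between copy share and SD over 77 members, and -0.69 between mean CPM and SD over 79, both across genes of the same libraries. The 5 members low in the 3 mice did not pass the test between the genotypes, with estimates from -0.40 ± 0.46 (SE) for Rps13 to 0.0017 ± 0.29 (SE) for Rpl24. Without the 3 mice, an alternative chosen after seeing the data, 12 members were lower at an unadjusted p of 0.05 or below and 0 higher (background 3.40% lower), and the median estimate was -0.14. Between the 4 CM and 3 CM/miR-126Δ/Δ mice left, 16 members had no overlap, as did 7.50% of all genes in either direction.

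**Figure D5:**
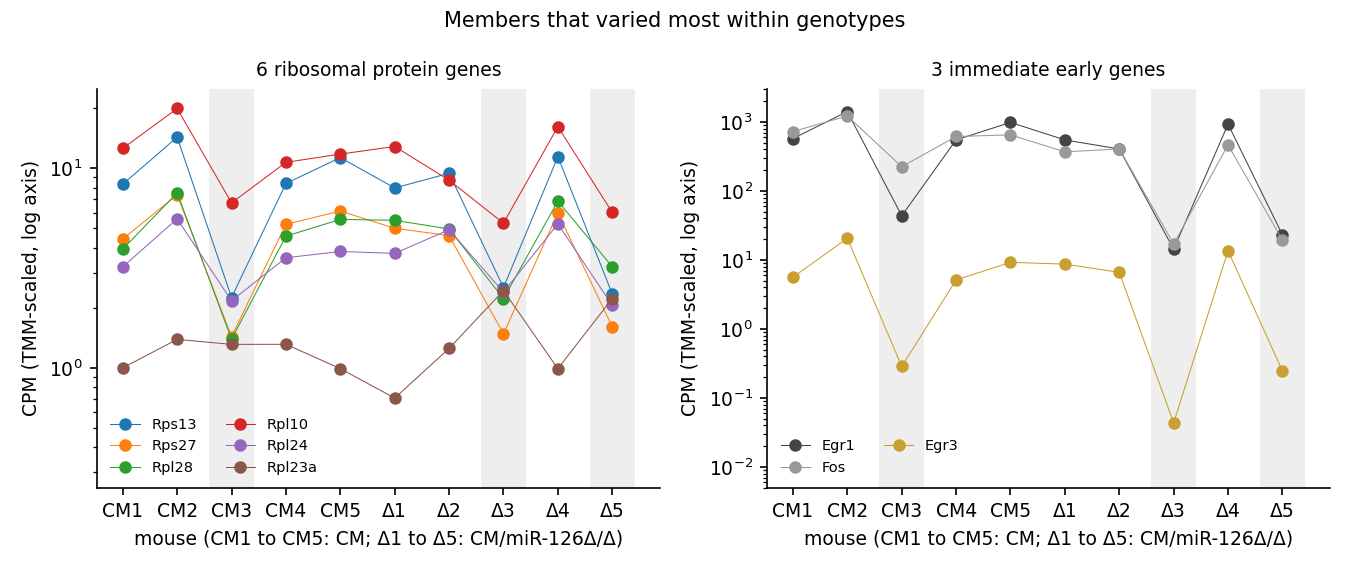
TMM-scaled CPM (log axes) in each of the 10 mice of the 6 ribosomal protein genes with a within-genotype SD of log2 CPM of at least 0.5 (left) and of the immediate early genes Egr1, Fos and Egr3 (right); thin lines only join the points of 1 gene, and grey bands mark CM mouse 3 and CM/miR-126Δ/Δ mice 3 and 5. Except for Rpl23a, the plotted genes are lowest in the banded mice.

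Several members host small nucleolar RNAs, which guide the modification of ribosomal RNA, in their introns. In the deposited coordinates 22 members contain 32 rows of such RNAs. Among them are Rpl13a with Snord32a, Snord33, Snord34 and Snord35a, and Rps3 with Snord15a and Snord15b. Of the 6 members with the widest spread, Rpl10 and Rpl23a contain such a row. Besides small RNAs, 11 members overlap another row, 6 of them on the opposite strand.

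As a check of the labels, all 8 LSK markers, Kit, Ly6a, Cd34, Flt3, Slamf1, Cd48, Mecom and Hlf, were above 1 CPM and summed to 2976 to 3428 CPM without and 2798 to 3493 CPM with the deletion. The globin genes Hba-a1, Hba-a2 and Hbb-bt were at 0 in all libraries. Copies of their sequences elsewhere were not counted, so these values cannot be read as absence of the mRNAs. Of the 9 erythroid markers 5 were above 1 CPM, the highest being Car1 with means of 27.6 CPM without and 44.4 CPM with the deletion. Erythroid markers summed to 16.8 to 147 CPM, and B cell, T cell and mast cell markers to at most 39.5, 12.7 and 290 CPM. Mir126a, the precursor of the deleted miRNA, held 4, 5, 0, 2 and 3 counts in CM mice 1 to 5. In the mice with the deletion it held 0 counts throughout, too few to check a single mouse. Rn45s, the ribosomal RNA precursor, held 14.8% to 22.6% of the counts of a library, and 12 members were lower and 0 higher when it was left out (background 3.06% lower).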

How the data were processed

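RNA from sorted LSK cells of 10 mice was sequenced after depletion of ribosomal RNA with a stranded kit, as single reads of 51 bases. The authors trimmed the reads, aligned them with TopHat2 to mm10 (GRCm38) and assigned the reads to RefSeq genes with HTSeq 0.6.1p1, per the labels and the study's methods, and they deposited raw counts per gene with positions and exon lengths. A further deposited table, the same counts scaled by a factor for each library, was not used. Genotype and mouse number were taken from the labels.

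The main fit took all 18747 genes with at least 1 count and used edgeR 4.0.16 under R 4.3.3, with TMM factors, the two-sided quasi-likelihood F-test in the form of edgeR 3 and genotype as the only term. Benjamini-Hochberg adjustment ran over all of these genes. CPM and RPKM were computed here from counts, TMM-scaled library sizes and deposited exon lengths. The fit was checked on simulated data. DESeq2 1.42.0 was an alternative, and the others were RLE factors, 2 stricter filters and none, the quasi-likelihood of edgeR 4, robust dispersions, a replicate block, Rn45s left out, TMM factors without the family, removal of the length trend, and each mouse left out. Copies of mRNA windows were sought with blastn 2.17.0 in the mm9 genome, and sequences at starts came from RefSeq on GRCm38.p6.

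Same-numbered mice deviated together: over 11680 genes the correlation of their deviations from the genotype means was 0.17 to 0.47 in all 5 pairs, and −0.085 on average between different numbers. The numbers come from the labels, which do not say what they share, and the block is therefore supported by the data only.

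Total counts were 23649233 to 33202086 per library, where 3 counts correspond to at most 0.127 CPM, and such limits cover counting error only, as reads carried no molecular identifiers. Members, gene lists and tests were chosen with earlier results of these data known. The genes named are the 6 members with the smallest p in each direction, the 4 highest and 4 lowest in RPKM, paralogs with their parents, the stalk and 5S-binding proteins, members whose genotypes do not overlap and members with few counts. Some genes that this rule names are not reported here. Others named in the text, including the 6 variable members, were chosen after their values were seen.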

Additional observations from a re-analysis of the deposited data

Results flagged for a closer look

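In 3 of 78 groups of 5 mice examined (the members named by rule and the variable members, the summed CPM and the total counts, each in both genotypes) the highest mouse stood far from the other 4, where chance alone flags about 1 in 20 groups, or 3.9 here. Rpl4 reached 1483 CPM in CM/miR-126Δ/Δ mouse 3, the next highest CM/miR-126Δ/Δ mouse being at 1322 CPM. Rpl36al reached 16.4 CPM in the same mouse, with the next at 14.0 CPM. Rpl5 reached 27.4 CPM in CM/miR-126Δ/Δ mouse 4, with the next at 25.4 CPM. All 3 values lay within the range of the CM mice for the same gene.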

How the results depend on the processing

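Under all 23 alternatives the median log2 fold change of the family stayed below 0 (-0.15 to -0.048), 0 members were higher at p of 0.05 or below, 0 passed the adjustment and 0 met the study's cutoffs. The number lower, 14, was 6 with filterByExpr (2.88% of all genes lower) and 6 when genes under 1 RPKM in both genotypes were left out of the fit (2.91%), 9 with TMM factors computed without the family (2.62%), 2 with the length trend removed (2.47%), 4 with the replicate block and that removal together (3.11%), 2 to 18 when 1 mouse was left out (1.92% to 4.29%), and 21 with the replicate block (4.62%), which added 7 members at that p and removed none. The fall with filtering and rescaling was not traced to a cause, as the cause was not tested. The number without overlap, 2, was 1 with the length trend removed (0.912% of all genes in either direction), 2 to 9 when 1 mouse was left out (1.37% to 3.37%) and 16 without CM mouse 3 and CM/miR-126Δ/Δ mice 3 and 5 (7.50%). Of 779 values of the 34 genes named by rule 701 kept their direction and their side of p of 0.05, 48 lost and 14 gained it, and 16 changed sign. Sign changes occurred for Rpl11 (−0.0003 with the replicate block, -0.066 without the 3 mice, -0.080 to 0.070 when 1 mouse was left out), Rps27l (0.0002 with the block and length trend removal), Rpl23a, Rpl36a and Rpl31 (-0.26, -0.19 and -0.039 without the 3 mice), Rpl39 (0.028 without them, -0.14 to 0.0050 with 1 mouse left out), and, with 1 mouse left out, Rpl5 (-0.019 to 0.073), Rpl31 (-0.029 to 0.093) and Rpl7l1 (-0.092 to 0.0061). Depth limits the members with few counts, such as Rpl39l, Rpl3l, Rpl30 and Rpl34. Every fit used all mice unless stated.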
